A study of Mus musculus with 47 samples.

Results

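Ucp1 and 5 other genes that mark or serve heat production in thermogenic fat were followed through brown fat, white fat and gastrocnemius muscle of mice with and without a tumour. The members were the rows with the symbols Ucp1, Cidea, Elovl3, Otop1, Letmd1 and Kcnk3, which both deposited count tables hold. They are 6 of the 24391 genes listed, and all 6 passed the low-count filter in all 3 tissues. The C57Bl6 mice fell into 3 groups. NTB mice bore no tumour, and their labels name no antibody. IgG1 mice carried tumours grown from HT1080, a line of human fibrosarcoma cells, and were dosed with IgG1 as the control antibody. 3P10 mice carried HT1080 tumours too and were dosed with 3P10, which binds GFRAL, the hindbrain receptor through which the circulating factor GDF15 lowers food intake. Both antibodies were dosed at 3 mg/kg once a week from the day of inoculation, and tissues were taken on day 21. IgG1 against NTB therefore joins the tumour and the control antibody, and 3P10 against IgG1 asks what the anti-GFRAL antibody changed when both groups bore tumours. The 2 comparisons share the IgG1 libraries.

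Brown adipocytes make heat by letting protons leak back across the inner mitochondrial membrane through UCP1. Noradrenaline from sympathetic nerves acts on beta-adrenergic receptors, raises cAMP, releases fatty acids that activate UCP1, and raises transcription of Ucp1 itself. White fat depots can gain adipocytes of this kind, called beige cells, while muscle fibres lack UCP1. Ucp1 encodes UCP1, and Letmd1 another protein of the inner mitochondrial membrane that brown fat needs for heat production. Otop1 and Kcnk3 encode channels of the cell membrane, a proton channel and a two-pore potassium channel. Cidea encodes a lipid droplet protein, and Elovl3 an enzyme that extends saturated and monounsaturated fatty acids.

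Brown fat had 6 libraries of NTB, 5 of IgG1 and 6 of 3P10, and white fat and muscle had 5 per group. Totals, in units of 1e6 counts, ran from 0.799 to 2.46 in brown fat, from 18.6 to 80.7 in white fat and from 24.8 to 33.5 in muscle. Levels are given in CPM, the count per 1e6 counts of the scaled library total. A count of 0 allows at most 1.24 to 3.63 CPM in a brown fat library (3 counts, counting error only), and at most 0.161 CPM in the others. The brown fat libraries came from a 3' end kit and the others from a whole-transcript kit, so no test was made between brown fat and the other tissues. The labels do not say whether each library of a group is a separate animal, so p-values measure the spread between these samples. In brown fat the title numbers run through the groups in turn, and an effect of that order cannot be told apart from the groups. The depot of the white fat was not given. In a bulk sample, fewer cells of a type and less RNA per cell cannot be told apart. White fat IgG1 replicates 2 and 4 stood apart from the other 13 white fat libraries, and the white fat fits are therefore also given without them. They were set aside after the data were seen and hold the 2 highest values of every member. A fall of the members without them therefore follows from the choice. Replicate 4 is also the deepest library, at 80.7 in these units against at most 34.4 in the other white fat libraries. The S number in its title lies far above those of all other white fat libraries. The part of either in its values was not tested.

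The sequences before the start sites of the members that rose together in brown fat are shown because the regulators counted further on act on such DNA. RefSeq entries of GRCm38.p6, matched by symbol, are shown for 3 of the 6 members. Cidea, which rose as well, is not among those shown. The submitters' processing notes name another build, mm9, for the counts, and the positions here belong to GRCm38.p6 alone. Each sequence is the 250 bases before the start site, 5′ to 3′, on the plus strand. Capitals mark matches to TGACG, the core of the cAMP response element, to AGGTCA, the core that many nuclear receptors bind, or to TATATA, which resembles the core promoter box that binds TBP. TGACGTCA, TATAAA and the EBF palindrome were searched as well, all on both strands, and TGACG lies inside TGACGTCA.
Ucp1, chr8:83290098-83290347: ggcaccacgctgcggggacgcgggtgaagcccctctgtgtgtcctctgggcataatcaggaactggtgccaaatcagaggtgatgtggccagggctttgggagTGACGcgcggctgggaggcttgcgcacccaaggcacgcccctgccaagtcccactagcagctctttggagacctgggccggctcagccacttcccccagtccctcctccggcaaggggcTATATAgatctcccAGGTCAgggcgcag
Otop1, chr5:38277154-38277403: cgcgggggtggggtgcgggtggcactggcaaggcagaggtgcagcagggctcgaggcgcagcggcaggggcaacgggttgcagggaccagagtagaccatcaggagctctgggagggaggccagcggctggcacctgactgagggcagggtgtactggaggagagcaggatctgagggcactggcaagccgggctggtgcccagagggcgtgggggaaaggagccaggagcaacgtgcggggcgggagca
Letmd1, chr15:100468761-100469010: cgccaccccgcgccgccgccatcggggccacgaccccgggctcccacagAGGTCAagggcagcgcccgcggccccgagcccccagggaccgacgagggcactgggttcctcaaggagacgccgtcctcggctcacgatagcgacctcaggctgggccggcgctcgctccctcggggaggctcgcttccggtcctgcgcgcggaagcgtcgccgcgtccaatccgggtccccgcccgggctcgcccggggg
The Ucp1 window held TGACG beginning at position -147, TATATA at -28 and AGGTCA at -14 from the start site. The Letmd1 window held AGGTCA at -201, and none of the 6 motifs was found in these 250 bases of Otop1. Of 32851 promoter windows of this length, 17.8% held TGACG, 14% AGGTCA, 5.25% TATATA, 12.4% TATAAA, 1.55% TGACGTCA and 0.779% the EBF palindrome. G and C made up 64.8% of the Ucp1 window, 70.0% of the Otop1 window and 77.6% of the Letmd1 window, with a median of 52.4% over all windows. Matches of this kind describe the sequence and are not evidence of binding.

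In brown fat of tumour-bearing mice the Ucp1 transcript was lower than in NTB mice when the control antibody was given, and it was higher with 3P10 than with the control antibody. Ucp1 in NTB ran from 3345 to 4527 CPM with a median of 3714 CPM (6 libraries). The 5 IgG1 libraries held 2759, 3177, 2851, 2856 and 2770 CPM. The 3P10 libraries ran from 3517 to 5682 CPM with a median of 4902 CPM (6 libraries). Every IgG1 library lay below every NTB and every 3P10 library, while NTB and 3P10 overlapped. On the log2 scale Ucp1 fell by 0.41 in IgG1 against NTB (SE 0.11, adjusted p = 0.0359 by edgeR's quasi-likelihood test). It rose by 0.73 in 3P10 against IgG1 (SE 0.11, adjusted p = 2.57e-04), a fold of 1.66. The value in 3P10 against NTB was 0.32 (SE 0.10, adjusted p = 0.0593). Between 2460 and 13783 Ucp1 reads stood behind each of these levels.

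The fall in IgG1 rested on a narrow margin. Its call ended without NTB replicate 2, 5 or 6 and without IgG1 replicate 1, 3, 4 or 5, with log2 values from -0.41 to -0.36 and adjusted p from 0.0526 to 0.107. The rise in 3P10 against IgG1 kept its call without any single library, at 0.68 to 0.80. Without 3P10 replicate 4, the lowest of its group, Ucp1 in 3P10 against NTB reached 0.39 (adjusted p = 0.0242), and without NTB replicate 5 it reached 0.37 (adjusted p = 0.0402).

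**Figure D1:**
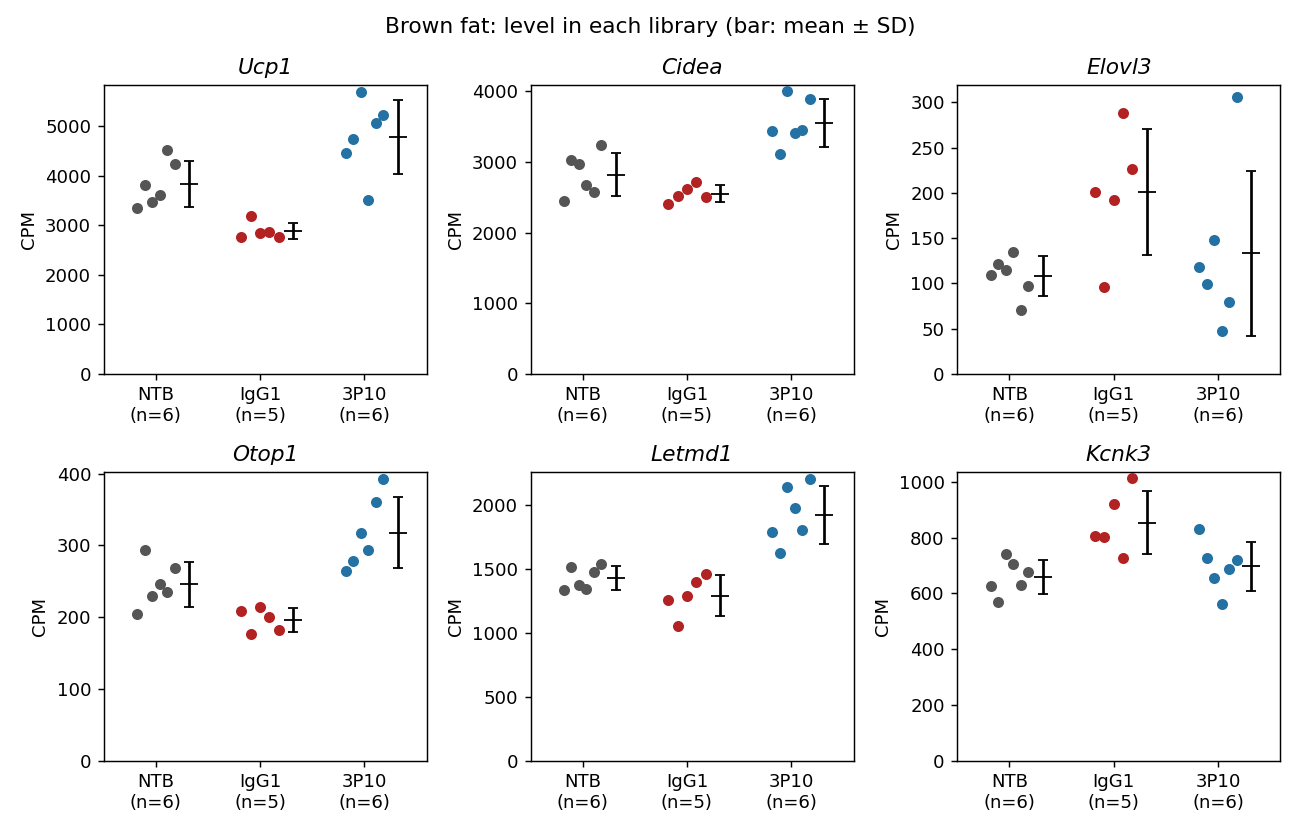
Level of each member in the 17 brown fat libraries, in CPM on linear axes that start at 0. Points are libraries, and the bars at the right of each group give the mean ± SD. For Ucp1 the 5 IgG1 libraries, at 2759 to 3177 CPM, sit below all others, and for Letmd1 the 6 3P10 libraries, from 1620 CPM, sit above all others.

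Letmd1, the other mitochondrial member, rose with 3P10. Its NTB libraries ran from 1331 to 1535 CPM (median 1424 CPM), and its 3P10 libraries from 1620 to 2202 CPM (median 1889 CPM), with 6 libraries each. In IgG1 it stood at 1258, 1050, 1285, 1397 and 1461 CPM. The 3P10 libraries lay above all 11 others, and IgG1 and NTB overlapped. Letmd1 rose by 0.57 on the log2 scale in 3P10 against IgG1 (SE 0.09, adjusted p = 6.62e-04) and by 0.43 in 3P10 against NTB (SE 0.09, adjusted p = 0.0125). In IgG1 against NTB it gave -0.15 (SE 0.09, adjusted p = 0.443). Its calls in both 3P10 comparisons held without any single library.

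The lipid droplet gene Cidea followed the same order of groups as Ucp1 in its means, 2551 ± 120 CPM in IgG1, 2821 ± 304 CPM in NTB and 3552 ± 335 CPM in 3P10 (SD, n = 5, 6 and 6). Its IgG1 libraries held 2400, 2514, 2615, 2717 and 2507 CPM, within the NTB range of 2449 to 3238 CPM (median 2823 CPM) or just below it. The 3P10 libraries, at 3113 to 4012 CPM (median 3445 CPM), lay above all IgG1 libraries and overlapped NTB at its upper end. Cidea rose by 0.48 on the log2 scale in 3P10 against IgG1 (SE 0.09, adjusted p = 0.00135) and by 0.33 in 3P10 against NTB (SE 0.08, adjusted p = 0.0223). The neighbours in that order, IgG1 and NTB, did not differ beyond their spread, at -0.15 (adjusted p = 0.396). The call against NTB ended without NTB replicate 1 or 4 or 3P10 replicate 3 or 6, with adjusted p from 0.0544 to 0.0563.

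Otop1, the proton channel gene, held 204 to 294 CPM in NTB (median 240 CPM, 6 libraries) and 264 to 392 CPM in 3P10 (median 306 CPM, 6 libraries). Its IgG1 libraries held 209, 176, 214, 200 and 182 CPM. All IgG1 libraries lay below all 3P10 libraries, and the 2 neighbours IgG1 and NTB overlapped. Otop1 rose by 0.70 on the log2 scale in 3P10 against IgG1 (SE 0.11, adjusted p = 5.24e-04) and by 0.36 in 3P10 against NTB (SE 0.10, adjusted p = 0.0413). With IgG1 against NTB the log2 difference came to -0.33 (SE 0.11, adjusted p = 0.105). With only the 2 groups compared in the fit the value against NTB was not called (0.36, adjusted p = 0.0513). That call also ended in 8 of 17 fits that each left out 1 library, with NTB replicate 1, 3, 4 or 5 or 3P10 replicate 3, 4, 5 or 6 left out, and adjusted p then ran from 0.0527 to 0.103.

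Kcnk3 and Elovl3 did not follow Ucp1. Kcnk3, the potassium channel gene, held 570 to 740 CPM in NTB (median 655 CPM) and 563 to 830 CPM in 3P10 (median 704 CPM), and 805, 801, 922, 727 and 1014 CPM in IgG1. The IgG1 libraries were the highest as a group, and IgG1 replicate 4 lay inside the NTB range. Kcnk3 rose by 0.37 on the log2 scale in IgG1 against NTB (SE 0.10, adjusted p = 0.0450) and gave -0.29 in 3P10 against IgG1 (SE 0.10, adjusted p = 0.0606). With only the 2 groups compared in the fit the rise was not called (adjusted p = 0.0572), nor with a filter of 1 CPM in 5 libraries (adjusted p = 0.0559). It also lost its call in 10 of 17 fits that left out 1 library, those without NTB replicate 1, 2, 5 or 6, IgG1 replicate 1, 3 or 5, or 3P10 replicate 2, 3 or 5, with adjusted p from 0.0509 to 0.168. The fall with 3P10 was called without IgG1 replicate 4 (-0.35, adjusted p = 0.0339) and without 3P10 replicate 1 (-0.35, adjusted p = 0.0282).

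Elovl3 varied most among the brown fat libraries, 6.51-fold from lowest to highest. It ran from 70.1 to 135 CPM in NTB (mean 108 ± 22.4 CPM, SD, n = 6) and from 47.0 to 306 CPM in 3P10 (median 108 CPM), and held 201, 95.8, 192, 288 and 226 CPM in IgG1. The highest library of all, at 306 CPM, was 3P10 replicate 6, and the next 3P10 library stood at 148 CPM. Elovl3 gave 0.90 on the log2 scale in IgG1 against NTB (SE 0.32, adjusted p = 0.125) and -0.59 in 3P10 against IgG1 (SE 0.31, adjusted p = 0.230). With only the 2 groups compared in the fit, IgG1 against NTB was called (0.89, adjusted p = 0.0378). Without 3P10 replicate 6 the second value was -0.996 (SE 0.25, adjusted p = 0.0164), and in the same fit IgG1 against NTB was called as well (0.90, adjusted p = 0.0416). Without IgG1 replicate 2, the lowest of its group, IgG1 against NTB gave 1.08 (adjusted p = 0.0350). Against NTB, 3P10 gave 0.31 with all libraries and -0.09 without 3P10 replicate 6.

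Counted over the members, IgG1 against NTB in brown fat gave 2 calls among 6, with Kcnk3 higher and Ucp1 lower, where 2.97% of the 8711 genes tested were called, 1.86% higher and 1.11% lower. In 3P10 against IgG1, 4 of 6 rose and 0 fell, where 11.6% of genes were called, 6.05% higher and 5.58% lower. In 3P10 against NTB, 3 of 6 rose and 0 fell, where 5.75% of genes were called, 3.03% higher and 2.72% lower. The median log2 fold change of the 6 members was -0.15, 0.53 and 0.32 in these comparisons, and that of all genes tested was -0.01, -0.01 and -0.00. DESeq2 called 2, 5 and 4 of the 6, with Kcnk3 lower in 3P10 against IgG1 (-0.30, adjusted p = 0.0428) and Ucp1 higher in 3P10 against NTB (0.32, adjusted p = 0.0281) as the added calls. The 6 members and the comparisons were picked with earlier results of these libraries known, so the counts describe the members and give no independent support.

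**Figure D2:**
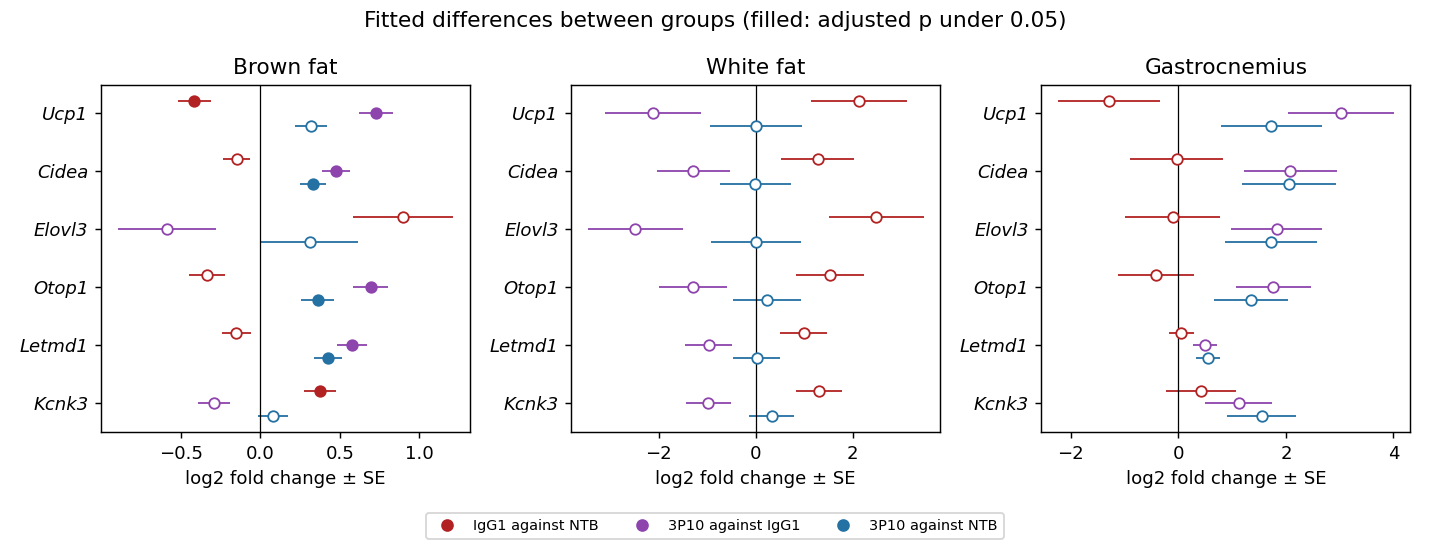
Fitted log2 fold change of each member with its SE, by tissue and comparison, on linear axes that differ in range between tissues. Filled points had an adjusted p under 0.05, and 0 points are filled in white fat and muscle. In brown fat the 3P10 against IgG1 points of Ucp1, Cidea, Otop1 and Letmd1 lie at 0.48 to 0.73 with SEs of 0.09 to 0.11.

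Brown fat libraries also differed in other transcripts of fat and muscle. The summed level of 12 skeletal muscle markers ran from 801 to 2843 CPM in NTB, from 160 to 2089 CPM in IgG1 and from 4.91 to 2260 CPM in 3P10, and 0 of the 12 were called in any comparison by edgeR's quasi-likelihood test. At an unadjusted p under 0.05 the counts were 1, 0 and 1, and DESeq2 called 0. With that sum as a term in the fit, Ucp1 gave -0.42 in IgG1 against NTB (adjusted p = 0.0489) and 0.72 in 3P10 against IgG1 (adjusted p = 3.03e-04). In that fit Kcnk3 lost its call in IgG1 against NTB (0.35, adjusted p = 0.0827) and was called in 3P10 against IgG1 (-0.31, adjusted p = 0.0492). That term was added after the data were seen.

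Markers of other cells also moved in brown fat, and their part in the Ucp1 values was not tested. The 5 endothelial markers, of which 4 were tested, summed to 642 to 931 CPM in NTB, 409 to 918 CPM in IgG1 and 454 to 657 CPM in 3P10. Cdh5 and Tek fell in 3P10 against NTB by 0.65 (adjusted p = 0.0160) and 0.84 (adjusted p = 0.00508), and Pecam1 fell by 0.52 in 3P10 against IgG1 (adjusted p = 0.00627). White fat markers summed to 70.0 to 139 CPM in NTB, 48.8 to 150 CPM in IgG1 and 21.4 to 94.1 CPM in 3P10. Of 4 tested, Retn fell by 1.61 (adjusted p = 0.00198) and Slc7a10 by 1.08 (adjusted p = 0.0155) in 3P10 against IgG1. Dcn, 1 of 5 fibroblast markers, fell by 0.59 in 3P10 against IgG1 (adjusted p = 7.97e-04) and by 0.44 in 3P10 against NTB (adjusted p = 0.0140). The summed fibroblast level was 411 to 611 CPM in NTB, 383 to 630 CPM in IgG1 and 373 to 499 CPM in 3P10. Slc36a2, the 1 beige marker tested, rose by 0.29 in 3P10 against IgG1 (adjusted p = 0.0229). Zic1, a defining gene of the classical brown fat depot, was read in all 17 libraries at 6.41 to 30.3 CPM.

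Ucp1 was set against general adipocyte transcripts of the same library, the sum of Adipoq, Fabp4, Plin1, Cidec, Lipe, Lpl, Cd36, Aqp7 and Pparg. That sum ran from 24413 to 33841 CPM in NTB, from 26025 to 40637 CPM in IgG1 and from 27506 to 36186 CPM in 3P10. Ucp1 stood at 13.2 ± 1.59% of the sum in NTB (SD, n = 6), 8.40 ± 2.22% in IgG1 (SD, n = 5) and 15 ± 3.12% in 3P10 (SD, n = 6). The log2 ratio was 0.68 lower in IgG1 than in NTB (-0.68, exact permutation p = 0.00433, two-sided) and 0.84 higher in 3P10 than in IgG1 (exact permutation p = 0.00866, two-sided). Adjusted over the 6 such tests, both gave p = 0.0260 by the exact permutation test, which can reach 0.00216 at the lowest in brown fat. Between 3P10 and NTB the log2 ratio differed by 0.16 (exact permutation p = 0.329, adjusted p = 0.658). Within the sum Adipoq, the adiponectin gene, itself rose by 0.47 in IgG1 against NTB (adjusted p = 0.00686), and Cd36, a fatty acid transporter gene, fell by 0.41 in 3P10 against IgG1 (adjusted p = 0.00221). Lipe, the hormone-sensitive lipase gene, rose by 0.35 in that comparison (adjusted p = 0.0195).

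Of 19 tested genes that carry the sympathetic signal to Ucp1, 1 was higher and 2 were lower in brown fat of IgG1 against NTB, where 2.97% of all genes were called. In 3P10 against IgG1 2 were higher and 1 lower, where 11.6% were called. Adrb3, the beta-3 adrenergic receptor of adipocytes, stood at 217 to 541 CPM in NTB, 68.7 to 146 CPM in IgG1 and 286 to 529 CPM in 3P10. Adrb1, the beta-1 receptor, ran from 71.9 to 106 CPM in NTB, from 38.1 to 86.8 CPM in IgG1 and from 84.8 to 151 CPM in 3P10. Both receptors fell and then rose, Adrb3 by -1.85 and 2.30 and Adrb1 by -0.66 and 1.02 on the log2 scale. Pde4d, a phosphodiesterase that breaks down cAMP, moved the other way, at 0.77 (adjusted p = 0.0230) and -0.58 (adjusted p = 0.0324). With the term for muscle markers in the fit Adrb1 lost its call in IgG1 against NTB. In 3P10 against NTB 1 of the 19 was called, where 5.75% of all genes were. It was the protein kinase A catalytic gene Prkaca, which rose by 0.50 (adjusted p = 0.0306). The medians of the group were 0.00, 0.07 and 0.10 in the 3 comparisons.

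Of 20 tested transcriptional activators of Ucp1, 4 rose and 1 fell in 3P10 against IgG1, where 11.6% of all genes were called. The nuclear receptor genes Esrrg and Ppara rose by 0.97 (adjusted p = 0.00131) and 0.94 (adjusted p = 0.00129). Prdm16 and Ebf2, which set brown fat identity, rose by 0.73 (adjusted p = 0.0457) and 0.50 (adjusted p = 0.0329), and Zbtb7b fell by 0.47 (adjusted p = 0.0118). None of the 20 was called in IgG1 against NTB, where 2.97% of all genes were. There 7 of the 20 had an unadjusted p under 0.05 and DESeq2 called 1. In 3P10 against NTB, where 5.75% of all genes were called, 2 of the 20 rose, Esrrg (0.53) and Cebpb (0.45). Neither was called with the term for muscle markers, which left 0 of the 20. Of 13 tested repressors of Ucp1, only Foxo1 was called in any of the 3 comparisons by edgeR, and it fell by 0.63 in 3P10 against IgG1 (adjusted p = 0.0229). In IgG1 against NTB 4 of the repressors had an unadjusted p under 0.05 and in 3P10 against NTB 1, and DESeq2 called 0 in both.

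Genes of a wider thermogenic list went both ways. That list shares genes with the lists above, among them Adrb3 with the sympathetic genes and Prdm16 and Ebf2 with the activators. Their calls are counted in both places. Of 20 tested, 1 rose and 2 fell in IgG1 against NTB, where 2.97% of all genes were called, with a list median of 0.01. In 3P10 against IgG1 7 rose and 3 fell, where 11.6% were called, 6.05% higher and 5.58% lower. The list median there was 0.08. Dio2, whose enzyme makes active thyroid hormone inside the cell, ran opposite to Ucp1. It rose by 1.72 in IgG1 (adjusted p = 0.0240) and fell by 1.87 with 3P10 (adjusted p = 0.00410), from 707 to 2530 CPM in IgG1 to 133 to 834 CPM in 3P10. Fabp3, a fatty acid carrier, fell by 0.63 in IgG1 against NTB (adjusted p = 0.0363). With 3P10 against IgG1 the fatty acid receptor Ffar4 rose by 1.13 (adjusted p = 7.92e-04) and the thioesterase Acot11 by 0.73 (adjusted p = 0.00610), while the fatty acid transporter Slc27a2 fell by 0.48 (adjusted p = 0.0421) and the kininogen Kng2 by 0.57 (adjusted p = 0.0328). With the term for muscle markers Slc27a2 lost its call there. In 3P10 against NTB, where edgeR called 5.75% of all genes, it called 0 of the 20. Of these, 10 had an unadjusted p under 0.05 and DESeq2 called 3. With the term for muscle markers edgeR called 1 of them, Clstn3.

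Among the genes related to Cidea and Elovl3, few were called. Over all genes 2.97% were called in IgG1 against NTB, 11.6% in 3P10 against IgG1 and 5.75% in 3P10 against NTB. Of 10 lipid droplet partners of Cidea, 0 were called in IgG1 against NTB or in 3P10 against IgG1 by edgeR, with 1 and 4 at an unadjusted p under 0.05 and 0 by DESeq2. In 3P10 against NTB 2 rose, Plin1 by 0.42 (adjusted p = 0.0268), which coats lipid droplets, and Bscl2 by 0.58 (adjusted p = 0.0140), which shapes them. Of the other elongases 2 passed the filter. Elovl6 rose by 0.37 in IgG1 against NTB (adjusted p = 0.0484) and fell by 0.42 with 3P10 (adjusted p = 0.0106), and Elovl5 rose by 0.58 with 3P10 (adjusted p = 0.0126). Of 15 genes of heat-producing cycles that do not need UCP1, the triglyceride lipase gene Pnpla2 rose by 0.38 in IgG1 against NTB (adjusted p = 0.0272) and fell by 0.37 with 3P10 (adjusted p = 0.0109). Dgat1, which makes triglyceride, fell by 0.51 with 3P10 (adjusted p = 0.00432). With the term for muscle markers Elovl6 and Pnpla2 lost their calls in IgG1 against NTB, and Clstn3, a calsyntenin gene, and the calcium channel gene Ryr1 gained one in 3P10 against IgG1.

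Over the 17 brown fat libraries the genes whose log2(CPM + 1) ran most like that of Ucp1 were Ifi27 (Pearson r = 0.919), Rhoq (0.887), Laptm4b (0.881), Adrb1 (0.874), Hebp2 (0.867) and Rbp4 (0.840), of 8710 other genes. Among the members Otop1 ranked 11 (r = 0.833), Cidea 18 (r = 0.806) and Letmd1 57 (r = 0.750), while Elovl3 and Kcnk3 gave -0.275 and -0.436. These values hold the differences between groups. With each library taken as its deviation from its group mean, r was 0.373 for Otop1, 0.376 for Cidea, 0.160 for Letmd1, 0.246 for Elovl3 and 0.105 for Kcnk3, and 0 of the 6 most alike genes stayed among the first 6. The libraries share depth and tissue makeup, and the values are descriptions with no test.

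In white fat the members ranged widely from library to library, and no group difference was called. Ucp1 held 627, 327, 93.0, 181 and 426 CPM in NTB, 73.6, 3281, 37.1, 3134 and 711 CPM in IgG1, and 573, 120, 84.5, 622 and 263 CPM in 3P10. The IgG1 group held the 2 highest and the 2 lowest of the 15 values and spanned 88.4-fold. Its replicates 2 and 4, at 3281 and 3134 CPM, reached the range seen in the brown fat libraries, though the kits differ. Ucp1 gave 2.13 on the log2 scale in IgG1 against NTB (SE 0.99, adjusted p = 0.165), -2.13 in 3P10 against IgG1 (SE 0.99, adjusted p = 0.172) and 0.01 in 3P10 against NTB (SE 0.95, adjusted p = 1). Without IgG1 replicates 2 and 4 the first 2 values turned to -0.27 (adjusted p = 0.903) and 0.28 (adjusted p = 0.907). As these 2 libraries hold the most Ucp1, such a shift follows from leaving them out.

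**Figure D3:**
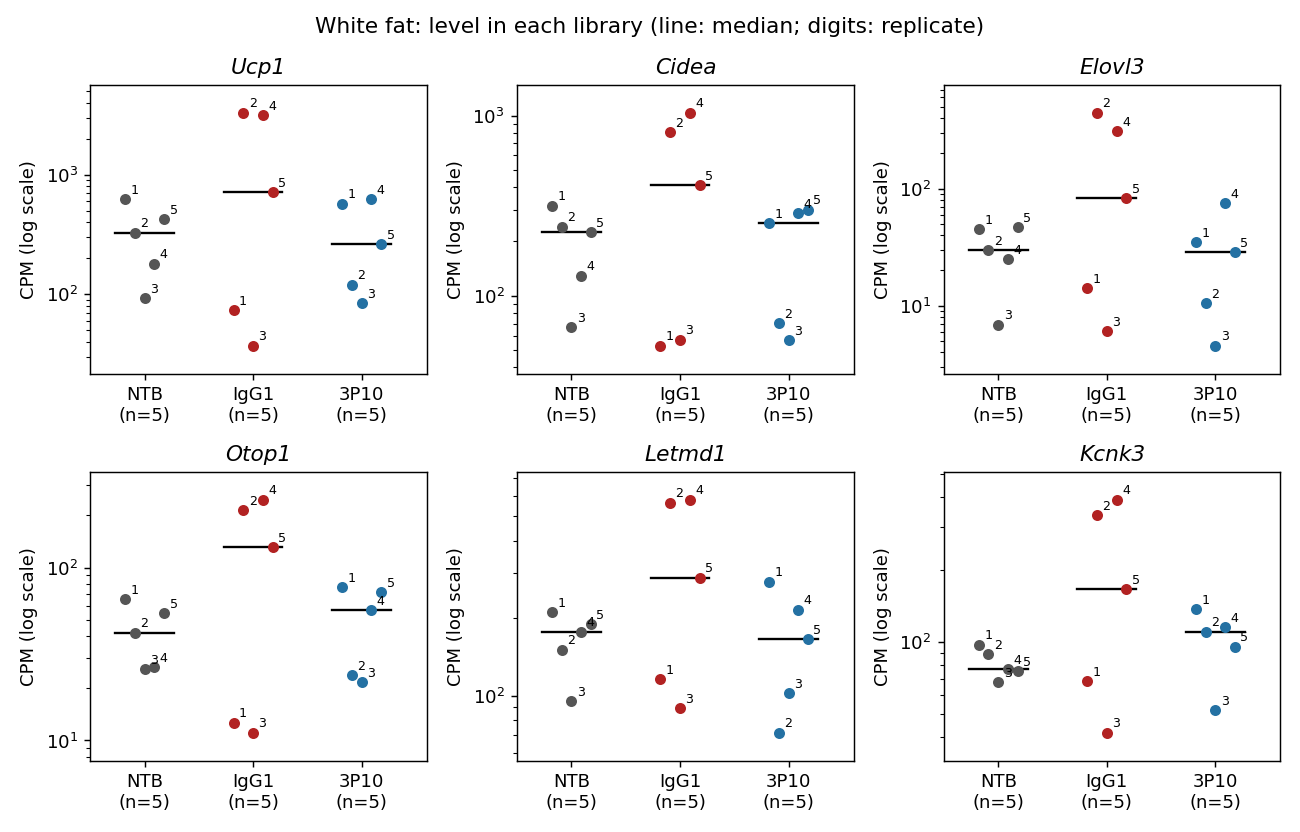
Level of each member in the 15 white fat libraries, in CPM on log axes, with the median of each group as a line and the replicate number beside each point. IgG1 replicates 2 and 4 hold the 2 highest values in all 6 panels, at 3281 and 3134 CPM for Ucp1, and the other groups overlap.

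The other 5 members set the same 2 libraries apart. Cidea stood at 807 and 1034 CPM in IgG1 replicates 2 and 4 and at 52.7 to 409 CPM in the other 13 libraries. Elovl3 stood at 443 and 309 CPM there and at 4.54 to 82.5 CPM elsewhere. The channel genes Otop1 and Kcnk3 stood at 214 and 247 CPM and at 336 and 391 CPM, against at most 131 CPM and 166 CPM elsewhere. Letmd1 stood at 563 and 579 CPM, against at most 288 CPM. For all 6 members the third highest library was IgG1 replicate 5.

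None of the 6 members was called in white fat of IgG1 against NTB by edgeR, where 8.64% of the 14402 genes tested were called. Of the 6, 4 had an unadjusted p under 0.05, and DESeq2 called 2, Elovl3 (2.52, adjusted p = 0.0494) and Kcnk3 (1.34, adjusted p = 0.0239). None was called in 3P10 against IgG1, where 7.42% of genes were called, 2 members had an unadjusted p under 0.05 and DESeq2 called 0. In 3P10 against NTB the count was also 0, at a background of 0%, with 0 unadjusted and 0 by DESeq2. The median log2 fold change of the members was 1.42, -1.29 and 0.01 in the 3 comparisons, and that of all genes -0.01, 0.01 and -0.01. Without IgG1 replicates 2 and 4 the count was 0 in each of the 3 comparisons by edgeR. Without IgG1 replicate 3, the lowest for Ucp1, Elovl3 and Kcnk3 were called in IgG1 against NTB (2.82, adjusted p = 0.0401, and 1.595, adjusted p = 0.0178) and in 3P10 against IgG1 (-2.82, adjusted p = 0.0406, and -1.26, adjusted p = 0.0382). Without IgG1 replicate 1, Kcnk3 was called in IgG1 against NTB (1.53, adjusted p = 0.0350).

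**Figure D4:**
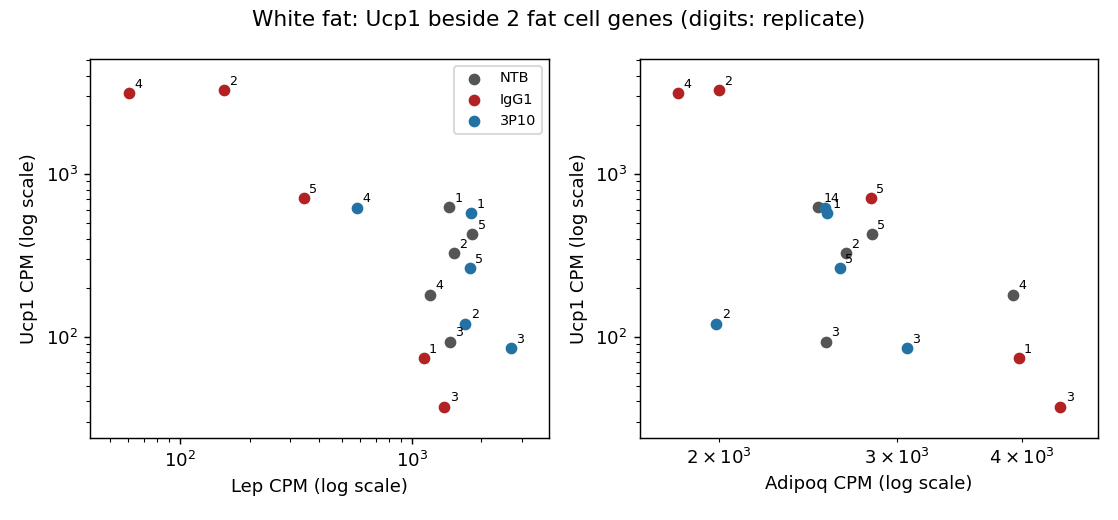
Ucp1 against the leptin gene Lep (left) and Adipoq (right) in the 15 white fat libraries, in CPM on log axes, with replicate numbers. IgG1 replicates 2 and 4 lie at the top left, with Ucp1 at 3281 and 3134 CPM and Lep at 155 and 60.1 CPM.

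The same 2 libraries also differed in markers of cell type. Lep, a hormone gene of white adipocytes, stood at 155 and 60.1 CPM in IgG1 replicates 2 and 4, at 343 CPM in IgG1 replicate 5 and at 580 to 2686 CPM in the other 12. The sum of 7 white fat markers was 1566 and 1123 CPM there, against 2123 to 5166 CPM elsewhere. The sum of 9 adipocyte markers was 36847 and 37584 CPM, against 44166 to 59025 CPM, and that of 5 fibroblast and preadipocyte markers 672 and 552 CPM, against 906 to 3341 CPM. The fibroblast markers differed over the whole IgG1 group too, with sums of 552 to 1486 CPM, all below the NTB range of 2191 to 3341 CPM, and 1289 to 2533 CPM in 3P10. Lum, Col1a1 and Col3a1 fell in IgG1 against NTB and rose in 3P10 against IgG1, 3 of the 5 in each, with Col1a1 at -2.35 (adjusted p = 0.0139) and 1.80 (adjusted p = 0.0385). Of 5 brown fat depot markers the sum was 147 and 184 CPM, against 66.3 to 133 CPM, but the defining gene Zic1 was at 0 and 0.0263 CPM and Lhx8 at 0 and 0.118 CPM. Of the 3 depot markers tested, edgeR called 1 higher and 0 lower in IgG1 against NTB, with a median of 0.04, where 8.64% of all genes were called. DESeq2 called 1 there. In 3P10 against IgG1 edgeR called 0 of them and DESeq2 2. The sum of 7 beige fat markers was 656 and 597 CPM, against 338 to 581 CPM. Of the 4 beige markers tested, however, 0 were called higher and 1 lower in IgG1 against NTB, with a median of -0.16. In 3P10 against IgG1 1 was called higher and 0 lower, with a median of 1.03. Krt14, a keratin gene of surface epithelium, was at 282 CPM in IgG1 replicate 4, at 0.803 CPM in replicate 2 and at 0.818 CPM or less in the others. The part of these differences in the Ucp1 values was not tested.

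Per adipocyte transcript, Ucp1 in white fat stood at 0.667 ± 0.472% of the 9-marker sum in NTB, 3.80 ± 4.44% in IgG1 and 0.719 ± 0.566% in 3P10 (SD, n = 5 each). The 3 differences gave adjusted p of 0.686, 0.686 and 0.960 by the exact permutation test, which can reach 0.00794 at the lowest before adjustment.

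Of 21 tested thermogenic genes in white fat 2 rose in IgG1 against NTB, where 8.64% of all genes were called, Slc27a2 by 3.26 (adjusted p = 0.0458) and the secreted factor Nrg4 by 0.61 (adjusted p = 0.0432), with a list median of 1.06. Without IgG1 replicates 2 and 4, which leaves 3 IgG1 libraries, the count was 0 and the median 0.16. That fit was chosen after the data were seen. The list holds genes that run with Ucp1, such as Cox7a1 and Acot11, so a lower median there follows from the choice. The medians of the sympathetic, activator and lipid droplet lists moved less in that fit, from 0.20 to 0.16, from 0.18 to 0.15 and from 0.30 to 0.23. In 3P10 against IgG1, where 7.42% of all genes were called, 1 of the 21 was, Nrg4, which fell by 0.61 (adjusted p = 0.0488). The list median was -1.16, or -0.06 without the 2 libraries. Adrb3 stood at 361 and 94.4 CPM in the 2 libraries and at 634 to 1397 CPM in the other 13, low where Ucp1 was high, and gave -0.74 in IgG1 against NTB (adjusted p = 0.255). Dio2 stood at 48.2 and 168 CPM, against 1.43 to 22 CPM elsewhere.

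As a background for the lists below, edgeR called 8.64% of all white fat genes tested for IgG1 against NTB. For 3P10 against IgG1 that share was 7.42%. Of the 20 activators of Ucp1 in white fat only Irf4, a transcription factor gene that fasting and cAMP raise in fat, was called. It rose by 3.06 in IgG1 against NTB (adjusted p = 0.00658) and fell by 2.95 in 3P10 against IgG1 (adjusted p = 0.0102), with 8.46 to 11.9 CPM in NTB, 16.4, 90.3, 93.4, 178 and 19.6 CPM in IgG1 and 8.42 to 12.8 CPM in 3P10. The IgG1 libraries lay above all others, and its call in IgG1 against NTB held without replicates 2 and 4, while its call in 3P10 against IgG1 did not. IgG1 replicate 3, at 93.4 CPM of Irf4, held the least Ucp1 of all. Of 21 genes of the sympathetic and cAMP group 3 rose in IgG1 against NTB, Adcy3 by 1.24, Sik1 by 1.23 and Prkar2b by 0.59, and 0 did so without the 2 libraries. In 3P10 against IgG1 0 of the 21 were called by edgeR, 5 had an unadjusted p under 0.05 and DESeq2 called 3. Of 21 genes of cycles without UCP1, 2 rose and 2 fell in IgG1 against NTB, and 1 rose and 1 fell in 3P10 against IgG1. The lipase gene Pnpla2 rose by 0.58 and then fell by 0.65. The creatine genes Ckb and Gatm fell by 1.11 and 1.04 in IgG1, and Gatm rose by 1.25 with 3P10. Sln, which uncouples the calcium pump of muscle, was called higher in IgG1 at no more than 4.81 CPM. Abhd5, which activates the lipase that Pnpla2 encodes, rose by 0.67 and fell by 0.61 in the same 2 comparisons, 1 of 10 lipid droplet genes. Of 5 elongases Elovl4 alone was called, and it fell by 3.37 in 3P10 against IgG1 from at most 6.25 CPM. Of 14 repressors of Ucp1 only Nr1h3 was called in that comparison, where it fell by 0.36, and 0 in IgG1 against NTB by edgeR, where 1 had an unadjusted p under 0.05 and DESeq2 called 1. Without IgG1 replicates 2 and 4, 0 genes of these lists other than Irf4 were called in either comparison by edgeR.

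Over the 15 white fat libraries the genes most like Ucp1 of 14401 others were Ndufa5 (Pearson r = 0.976), Cox7a1 (0.973), Acot11 (0.973), Mrpl15 (0.968), Cidea (0.967) and Elovl3 (0.965). Ndufa5 and Cox7a1 encode parts of the respiratory chain, and Mrpl15 a mitochondrial ribosomal protein. Otop1 ranked 8 (0.964), Letmd1 23 (0.948) and Kcnk3 95 (0.917), so that all 5 other members ran with Ucp1 here, unlike in brown fat. Without the 2 IgG1 libraries r was 0.945 for Cidea, 0.927 for Elovl3, 0.932 for Otop1, 0.888 for Letmd1 and 0.824 for Kcnk3. These too are descriptions over libraries that share tissue makeup.

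In gastrocnemius muscle the members were low and split the 3P10 libraries. Ucp1 held 9.29, 1.61, 19.9, 1.68 and 22.6 CPM in NTB, 2.30, 2.24, 1.33, 6.62 and 9.71 CPM in IgG1, and 2.64, 84.5, 1.99, 57.2 and 35.7 CPM in 3P10. The 3 highest libraries were 3P10 replicates 2, 4 and 5, while 3P10 replicates 1 and 3 lay among the lowest of the other groups. NTB replicate 3, IgG1 replicate 2 and 3P10 replicate 2, which holds the most Ucp1, stood apart from the other 12 muscle libraries. Their title numbers are 16, 14 and 15. Their TMM factors were 0.804, 0.81 and 0.866, against 0.974 to 1.13, and their summed muscle markers 400518, 332399 and 351212 CPM, against 186374 to 258474 CPM. Ucp1 gave -1.29 on the log2 scale in IgG1 against NTB (SE 0.94, adjusted p = 0.481), 3.02 in 3P10 against IgG1 (SE 0.98, adjusted p = 0.243) and 1.73 in 3P10 against NTB (SE 0.93, adjusted p = 1). With the libraries of title numbers under 14 alone, which leaves out these 3 and IgG1 replicate 4, the values were -0.94 (adjusted p = 0.672), 2.43 (adjusted p = 0.384) and 1.49 (adjusted p = 0.691). That subset was chosen after the data were seen. Between 38 and 2372 reads stood behind each level.

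The other members parted the 3P10 libraries in the same way. In 3P10 Cidea held 1.54, 43.7, 1.43, 20.2 and 19.7 CPM, Otop1 0.734, 6.05, 0.639, 6.71 and 7.59 CPM, and Kcnk3 0.701, 7.73, 0.489, 5.08 and 5.61 CPM. Elovl3 held 0.367, 7.02, 0.15, 4.72 and 2.23 CPM, from 4 to 197 reads. Letmd1 varied least, at 12.4, 30.3, 13, 26.1 and 21.8 CPM. In all 5 of these genes 3P10 replicates 2, 4 and 5 were the highest of the 15 libraries.

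None of the 6 was called in muscle by edgeR in any comparison, where 5.6% of 13283 genes were called in IgG1 against NTB, 0.211% in 3P10 against IgG1 and 0% in 3P10 against NTB. At an unadjusted p under 0.05 the counts were 0, 5 and 3, and DESeq2 called 0 in each. With title numbers under 14 alone edgeR called 0 of the 6 in each comparison as well. The median log2 fold change of the members was -0.07, 1.80 and 1.64, and that of all genes 0.01, -0.02 and -0.00.

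**Figure D5:**
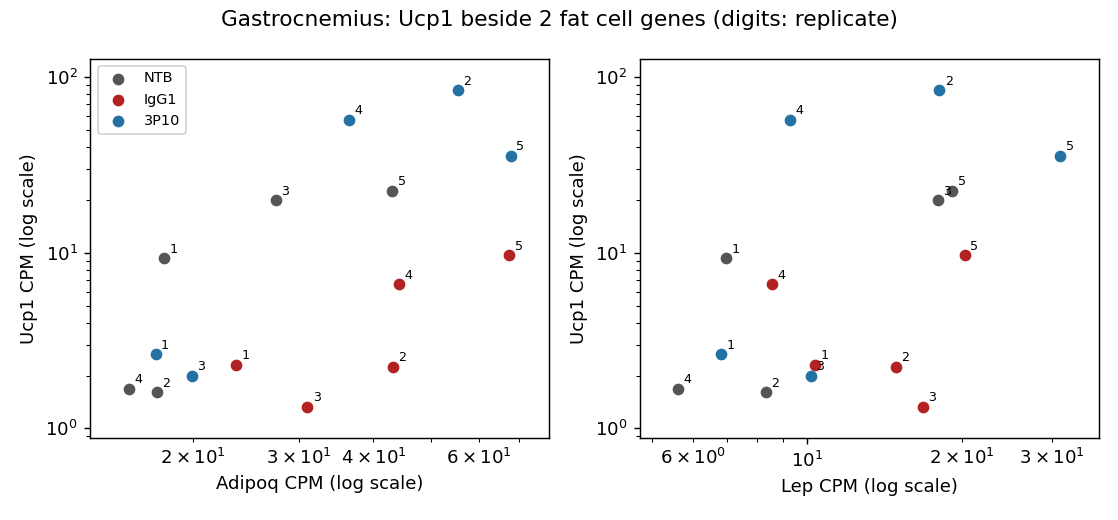
Ucp1 against Adipoq (left) and Lep (right) in the 15 muscle libraries, in CPM on log axes, with replicate numbers. 3P10 replicates 2, 4 and 5 lie highest in Ucp1, at 35.7 to 84.5 CPM, at Adipoq levels of 36.4 to 67.9 CPM that IgG1 libraries with less Ucp1 share.

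Transcripts of fat cells were present in every muscle library, and their part in the Ucp1 values was not tested. Adipoq held 17.9, 17.4, 27.5, 15.6 and 43.0 CPM in NTB, 23.6, 43.1, 31, 44.1 and 67.4 CPM in IgG1, and 17.3, 55.3, 19.9, 36.4 and 67.9 CPM in 3P10. All 9 adipocyte markers were read in each group, with sums of 1202 to 1859 CPM in NTB, 1485 to 2246 CPM in IgG1 and 1239 to 2497 CPM in 3P10. Of the brown fat depot markers Zic1 stayed at 0 to 0.875 CPM. Ucp1 over Adipoq, a ratio of CPM, was 0.153, 1.53, 0.1, 1.57 and 0.526 in 3P10, 0.0428 to 0.15 in IgG1 and 0.0927 to 0.725 in NTB. By that ratio 3P10 replicates 2 and 4 stood above all other libraries, 3P10 replicate 5 lay inside the NTB range, and 3P10 replicate 3 lay inside the IgG1 range.

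With all libraries, white fat and muscle showed opposite values for 3P10 against IgG1. The difference between the tissues was tested in a joint edgeR fit chosen after the values were seen. Without white fat IgG1 replicates 2 and 4 the white fat values of Ucp1, Cidea, Letmd1 and Kcnk3 were 0.28, 0.16, 0.018 and 0.14. These have the sign seen in muscle, while Elovl3 and Otop1 kept the opposite sign. The joint fit was not run without those libraries. For Ucp1 the white fat value minus the muscle value was -5.19 on the log2 scale (SE 1.47, adjusted p = 0.0980). For the other 5 members it ran from -4.34 for Elovl3 to -1.52 for Letmd1, with adjusted p from 0.113 to 0.191. None of the 6 passed, at a background of 0.208% of 14898 genes, and 6 of 6 had an unadjusted p under 0.05. In IgG1 against NTB the difference for Ucp1 was 3.46 (adjusted p = 0.226), at a background of 1.11%. A white fat and a muscle library of the same group share a title number in 15 of 15 cases, and the labels do not say whether such a number is a mouse. With the title number as a block, added after the data were seen, the Ucp1 difference was -3.17 in 3P10 against IgG1 (SE 1.55, adjusted p = 0.385) and 1.59 in IgG1 against NTB (adjusted p = 0.686). In that fit edgeR called 0 of the 6 in 3P10 against IgG1, at a background of 0.0336%, and 0 of the 6 in IgG1 against NTB, at a background of 0.141%. At an unadjusted p under 0.05 the counts were 3 and 0.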

How the data were processed

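RNA of 47 tissue samples was sequenced, brown fat with a 3' end kit that has a molecular identifier step and white fat and muscle with a directional kit. Whole-number read counts per gene were deposited by the authors in 2 tables. The submitters' processing notes name Trim Galore, STAR 2.6.0a, featureCounts 1.6.2, edgeR 3.22.3 and the build mm9. Whether identifiers were collapsed, and which strand setting was used in counting, is not given in the sources used here. Genes that overlap a member on the other strand could therefore share its reads.

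Samples were grouped by their titles. Each tissue was fitted on its own with edgeR 4.0.16 (R 4.3.3), with TMM factors, filterByExpr (minimum count 10, minimum total 15), a quasi-likelihood fit over 3 groups and Benjamini-Hochberg adjustment over all genes tested, with 14, 12 and 12 residual degrees of freedom in brown fat, white fat and muscle. A call is an adjusted p under 0.05. The edgeR fit was tested on simulated data. DESeq2 1.42.0, other scaling and filters, a term for title numbers of 14 or above, a replicate block, only the groups compared and leaving out each library were alternatives, and the title number as a block was added for the joint fit of white fat and muscle. The ratio of Ucp1 to adipocyte markers was tested by exact permutation (SciPy 1.17.1), adjusted over 6 tests. Named genes are the members, up to 4 called genes of each list with the smallest adjusted p in each comparison, the 6 genes most like Ucp1, and marker genes where a marker list is described. Prdm16, Kng2 and Slc27a2 in brown fat and Adrb3 and Dio2 in white fat were named after their values were seen. The members, lists and tests were chosen with earlier results of these data known.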

Additional observations from a re-analysis of the deposited data

Results flagged for a closer look

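Of 54 groups of 5 or 6 libraries that were tested for a library standing apart, 3 had one, and chance alone marks about 1 in 20 such groups. In brown fat, IgG1 replicate 2 was the highest of its group for Ucp1 at 3177 CPM, with the next library at 2856 CPM and a gap of 0.768 of the group's range. It still lay below every NTB library. In muscle, replicate 5 stood apart for Otop1 in NTB at 4.21 CPM, with the next library at 1.52 CPM, and in IgG1 at 3.18 CPM, with the next at 1.16 CPM. The gaps were 0.791 and 0.773 of the ranges.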

How the results depend on the processing

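In 3P10 against IgG1 in brown fat, Ucp1, Cidea, Otop1 and Letmd1 kept their calls in all 17 fits without 1 library and in 7 other settings. Over all members, tissues and comparisons, 1165 of the alternative values kept direction and side of the threshold, 36 lost and 18 gained a call, and 59 changed sign; the cause was not tested. Of the 2 members called in brown fat of IgG1 against NTB, 1 stayed called with a filter of 1 CPM in 5 libraries, 1 with the muscle term (added after seeing the data), and 0 with a replicate block. Without 1 library the count of called members ran from 0 to 3 there, from 4 to 5 in 3P10 against IgG1 and from 1 to 3 in 3P10 against NTB. In white fat it ran from 0 to 2 in both IgG1 comparisons, and DESeq2 called 2 in IgG1 against NTB.

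Replicate numbers were not taken as pairing the libraries, since in each comparison at least 1 pair fell short of 0.1: same-numbered libraries' deviations correlated at -0.137 to 0.0817 (brown fat), -0.208 to 0.467 (white fat) and -0.596 to 0.556 (gastrocnemius). In 3P10 against IgG1 4 of 5 muscle pairs and 3 of 5 white fat pairs exceeded 0.1. In each tissue 3 of 5 correlated best with their own number. The IgG1 and 3P10 titles there are neighbours in replicates 1 (11 and 12), 2 (14 and 15), 3 (2 and 3) and 5 (8 and 9). Replicate 4 was titled 23 and 6. The labels do not say what neighbouring numbers share, and no block by neighbouring title numbers was fitted within a tissue. In white fat and muscle replicate 1 was titled 1 in NTB, 11 in IgG1 and 12 in 3P10. The check and the replicate block in the NTB comparisons of these tissues therefore could not decide whether libraries with neighbouring title numbers belong together. The block ended the brown fat calls of Ucp1 (-0.38, adjusted p = 0.0703) and Kcnk3 (0.38, adjusted p = 0.0832) in IgG1 against NTB and of Otop1 in 3P10 against NTB (0.36, adjusted p = 0.0594). With the replicate block 164 genes were called in brown fat of IgG1 against NTB, where the main fit called 259. Ucp1 per adipocyte marker, permuted within same-numbered brown fat pairs, gave log2 differences of -0.696 (IgG1 minus NTB) and 0.838 (3P10 minus IgG1). Each had adjusted p = 0.188 by this exact permutation test. With 5 pairs such a test cannot reach p under 0.05 even before adjustment. The block therefore could not decide whether these ratio differences hold. In white fat of 3P10 against NTB the block gave Ucp1 -0.14. DESeq2 called 2551 genes in white fat of IgG1 against NTB, where edgeR called 1245.

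Without white fat IgG1 replicates 2 and 4, IgG1 against NTB gave -0.27 for Ucp1, -0.18 for Cidea and -0.00285 for Letmd1, and 3P10 against IgG1 gave 0.28 for Ucp1, 0.16 for Cidea, 0.018 for Letmd1 and 0.14 for Kcnk3. With libraries of title numbers under 14 alone, IgG1 against NTB gave -0.51 for Ucp1, -0.40 for Cidea, -0.10 for Elovl3 and -0.15 for Letmd1, and 3P10 against IgG1 gave 0.49 for Ucp1, 0.38 for Cidea, 0.0567 for Elovl3, 0.14 for Otop1, 0.21 for Letmd1 and 0.12 for Kcnk3. In muscle of IgG1 against NTB that subset gave 0.11 for Cidea and -0.00437 for Letmd1. Both subsets were chosen after seeing the data. A term for title numbers of 14 or above gave Letmd1 -0.036 there.

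In white fat of 3P10 against NTB Ucp1 gave -0.00776 with the title term and -0.0173 with titles under 14, and Elovl3 0.0057 with RLE factors, 0.00556 with the 1 CPM filter and 0.00778 with DESeq2. Without 1 library they ran from -0.35 to 0.38 for Ucp1, from -0.23 to 0.23 for Cidea, from -0.64 to 0.29 for Elovl3 and from -0.25 to 0.21 for Letmd1. Elovl3 in brown fat of 3P10 against NTB ran from -0.0933 to 0.48. In muscle of IgG1 against NTB the ranges were -0.39 to 0.36 for Cidea, -0.81 to 0.27 for Elovl3, -1.11 to 0.23 for Otop1 and -0.0171 to 0.12 for Letmd1.

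Ucp1 per adipocyte marker, without 1 library, ran from -0.825 to -0.626, from 0.761 to 0.981 and from 0.0792 to 0.275 in the brown fat comparisons, and from 0.153 to 1.87, from -1.90 to -0.183 and from -0.415 to 0.375 in white fat. With Adipoq alone as the reference, white fat of 3P10 against NTB gave 0.0454. Of the 6 genes most like Ucp1, 0 stayed by deviations from group means and 4 by Spearman's rho in brown fat, and 1, 1 and, without the 2 IgG1 libraries, 4 in white fat. Brown fat depth limits low genes most, since 0 counts there allow up to 3.63 CPM.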

Other observations

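In muscle of IgG1 against NTB, where 5.6% of all genes were called, 1 of 20 tested thermogenic genes was called. Dio2, the deiodinase gene that ran opposite to Ucp1 in brown fat, fell by 1.90 on the log2 scale in IgG1 against NTB (adjusted p = 0.00294), from 4.06 to 5.87 CPM in NTB to 0.796 to 2.76 CPM in IgG1. It rose by 1.58 in 3P10 against IgG1 (adjusted p = 0.0428), to 2.90 to 6.34 CPM, and the IgG1 libraries lay below all others. Of 20 tested genes of heat-producing cycles without UCP1, 3 fell in IgG1 against NTB and 0 rose, all of them genes of creatine metabolism. Ckb, the brain-type creatine kinase gene, fell by 1.04 (adjusted p = 0.00294) and the mitochondrial creatine kinase gene Ckmt2 by 0.97 (adjusted p = 0.0100). Gamt, whose enzyme makes creatine, fell by 1.96 (adjusted p = 0.0327).

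In the same comparison Plin4, a lipid droplet coat gene, rose by 1.05 (adjusted p = 0.00218), from 180 to 327 CPM in NTB to 423 to 551 CPM in IgG1, 1 of 9 tested lipid droplet genes. Cebpb, 1 of 20 activators of Ucp1, rose by 1.04 (adjusted p = 0.0100), and Nr1h3, 1 of 14 repressors and the gene of the liver X receptor alpha, rose by 0.65 (adjusted p = 0.0275). Of these genes only Dio2 was called in 3P10 against IgG1. With the libraries of title numbers under 14 alone, chosen after the data were seen, Dio2 lost its call in 3P10 against IgG1 and Gamt its call in IgG1 against NTB, while Dio2, Ckb, Ckmt2, Plin4, Cebpb and Nr1h3 kept theirs in IgG1 against NTB. None was called in 3P10 against NTB by edgeR, where 0% of all genes were.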
